A study of Mus musculus with 4 samples.

Results

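The genes described here encode the metalloproteinases of the pericellular matrix and their tissue inhibitors: the matrix metalloproteinases (MMPs), the ADAMs (proteases with a disintegrin domain, most of them anchored in the membrane), the secreted ADAMTS proteases with thrombospondin repeats, the ADAMTS-like proteins, and the TIMPs. Members were chosen by name alone, as the genes whose symbol is Mmp, Adam, Adamts or Timp with a number and an optional letter, or begins with Adamtsl, and which at least 1 probe set names without any other gene. This gave 83 of the 19938 genes measured: 22 Mmp, 34 Adam, 18 Adamts, 5 Adamtsl and 4 Timp genes, read by 108 probe sets. The arrays held RNA from cells of the dermal papilla, the mesenchymal cluster that instructs hair growth from within the follicle bulb, sorted from mouse skin at postnatal day 5 as positive for a Sox2-driven green fluorescent protein (Sox2GFP) and for integrin alpha 9. The groups were 2 arrays from animals with a conditional knockout of the transcription factor gene Sox2 (cKO) and 2 arrays from Sox2 heterozygous animals (Het), so cells of both groups carried the reporter used in the sort. The sources used here give neither the Cre line and the cells it acts in, nor the strain, nor whether animals were pooled. The arrays of a group are labelled as biological replicates.

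MMPs degrade collagens, basement membranes and other matrix proteins, ADAMs release growth factors, adhesion molecules and receptors from the cell surface, and ADAMTS proteases process procollagens or cleave large proteoglycans such as versican. TIMPs bind the active site of these enzymes. Timp3 is the matrix-bound TIMP with the broadest range, which takes in ADAM17 and the aggrecan-cleaving ADAMTS proteases as well as MMPs, and the dermal papilla is a condensed cell cluster set in a matrix rich in versican and basement membrane components. Because ADAMTS-like proteins lack the protease domain and some ADAMs lack its active site, a gene symbol of these families does not always stand for an enzyme.

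The values are log2 values that the authors centred so that each probe set has a median of 0 over the 4 arrays, within 1e-06. They show how the arrays differ for a gene, and not how strongly the gene is expressed, so neither the presence of the papilla's defining markers nor the detection of any protease can be read from them. The centring also places the middle pair of arrays at equal distances above and below 0 in each probe set. Sox2 stood at -0.87 and -0.94 in the cKO arrays, against 0.96 and 0.87 in the Het arrays. The SD of the difference between arrays over all genes was 0.20 within cKO and 0.17 within Het, and it ran from 0.17 to 0.24 between arrays of different groups. Precision is limited by there being 2 arrays in a group. Transcripts that depend on the sex of the animals also separated the groups: Xist, the RNA of the inactive X chromosome, stood at 0.85 and 1.23 in cKO, against -4.08 and -0.85 in Het, and Y-linked Eif2s3y stood at -0.87 and -0.79 in cKO, against 1.18 and 0.79 in Het. A difference in sex make-up and one in genotype cannot be told apart in these arrays. Timp1 is the 1 member on the X chromosome. Of all 19938 genes, 0 passed the moderated test of limma (adjusted p under 0.05 over all genes), and 1053 had an unadjusted p under 0.05. The smallest adjusted p was that of Sox2 (0.345, limma), so even the deleted gene did not pass. With these arrays, missing the threshold is therefore no sign that a gene is unchanged.

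Short motifs were searched for before the start sites of 3 members. Timp3 had the lowest difference of the 83 genes and Mmp3 the highest. Adam17, a surface protease inhibited by Timp3, was the next lowest gene with groups that did not overlap. The stretches searched are given in the order Timp3, Adam17, Mmp3. Each is the 250 bases before the start in RefSeq on GRCm38.p6, at chr10:86300162-86300411 on the plus strand, chr12:21373633-21373882 on the minus strand and chr9:7445572-7445821 on the plus strand. Capitals mark matches, on either strand, to the SOX core ATTGTT, the AP-1 site TGANTCA, the GC box GGGCGG and the TATA box TATAAA, none of which overlap here.
Timp3: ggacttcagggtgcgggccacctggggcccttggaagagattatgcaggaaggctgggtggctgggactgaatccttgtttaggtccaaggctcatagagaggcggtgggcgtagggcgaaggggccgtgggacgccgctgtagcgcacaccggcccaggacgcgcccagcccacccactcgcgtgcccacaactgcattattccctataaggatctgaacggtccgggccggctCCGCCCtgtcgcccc
Adam17: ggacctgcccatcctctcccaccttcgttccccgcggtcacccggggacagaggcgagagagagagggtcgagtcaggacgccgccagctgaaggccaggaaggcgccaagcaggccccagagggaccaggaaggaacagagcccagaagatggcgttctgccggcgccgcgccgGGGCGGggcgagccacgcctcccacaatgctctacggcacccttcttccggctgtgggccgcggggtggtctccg
Mmp3: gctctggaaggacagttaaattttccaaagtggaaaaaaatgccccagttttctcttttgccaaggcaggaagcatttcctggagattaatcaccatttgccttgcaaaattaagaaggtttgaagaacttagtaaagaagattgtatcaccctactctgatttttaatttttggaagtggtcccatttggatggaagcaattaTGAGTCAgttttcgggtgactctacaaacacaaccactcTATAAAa
Timp3 and Adam17 each had 1 match to the GC box and none to the other motifs. Mmp3 had 1 match to the AP-1 site 46 bases and 1 to the TATA box 7 bases before the start. Among all 32851 promoter windows of this length, 9.42% held the SOX core, 6.75% the AP-1 site, 32.7% the GC box and 12.4% the TATA box. RefSeq windows were matched for 52 of the 83 genes, 57 windows in all, of which 5 held the SOX core, 12 the AP-1 site, 22 the GC box and 13 the TATA box. The absence of a match says only that these letters are not in the window, and a match only that they are. Whether a match is used, or whether transcription begins at the RefSeq start in these cells, was not tested.

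Timp3, which encodes the matrix-bound inhibitor, had by far the lowest difference of the 83 genes. It stood at -0.19 and -1.11 in the cKO arrays, against 1.09 and 0.19 in the Het arrays. Both cKO arrays thus lay below both Het arrays, and replicate 2 of each group lay about as far below replicate 1 of its group: by 0.92 in cKO and 0.90 in Het. Set as cKO minus Het, this gave a difference of -1.28 ± 0.49 (SE, 2 arrays in each group), a value 2.44-fold lower in cKO, and the group means were -0.65 ± 0.65 in cKO and 0.64 ± 0.64 in Het (SD). Among all genes it was the 12th lowest difference. Adjusted over all genes it missed the threshold (adjusted p = 0.942, limma; unadjusted p = 0.0656), and the spread within each group was about as large as the distance of its mean from 0. Taken by replicate number, the cKO array lay 1.27 below the Het array for replicate 1 and 1.30 below it for replicate 2. The difference shrank to -0.82 without cKO replicate 2 and to -0.83 without Het replicate 1, and it was -1.74 without cKO replicate 1 and -1.73 without Het replicate 2. In sorted cells, fewer cells that express the gene and less RNA per cell cannot be told apart. Timp3 lies within the synapsin gene Syn3, whose own probe set differed by -0.01 ± 0.04 (SE).

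The other inhibitors did not share that difference. Timp2, which together with the membrane protease Mmp14 activates the gelatinase Mmp2, stood at 0.21 and -0.36 in cKO, against 0.26 and -0.21 in Het, a difference of -0.10 ± 0.28 (SE). Its arrays fell by replicate number, with replicate 1 of both groups high and replicate 2 of both groups low, and its difference turned to 0.19 without cKO replicate 2 and to 0.14 without Het replicate 1. Timp1, a soluble inhibitor induced by injury and growth factors, stood at 0.02 and -0.02 in cKO, against -0.04 and 0.09 in Het, a difference of -0.03 ± 0.06 that turned to 0.04 without Het replicate 2. Timp4, an inhibitor best known from heart muscle, stood at -0.04 and 0.00 in cKO, against 0.00 and 0.04 in Het, a difference of -0.04 ± 0.04 that was -0.020 without Het replicate 2. The groups overlapped for all 3 of these genes, so the median of the 4 TIMP genes, -0.07, rests on small values beside the single large one. That median was -0.21 without cKO replicate 1 and -0.17 without Het replicate 2.

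**Figure D1:**
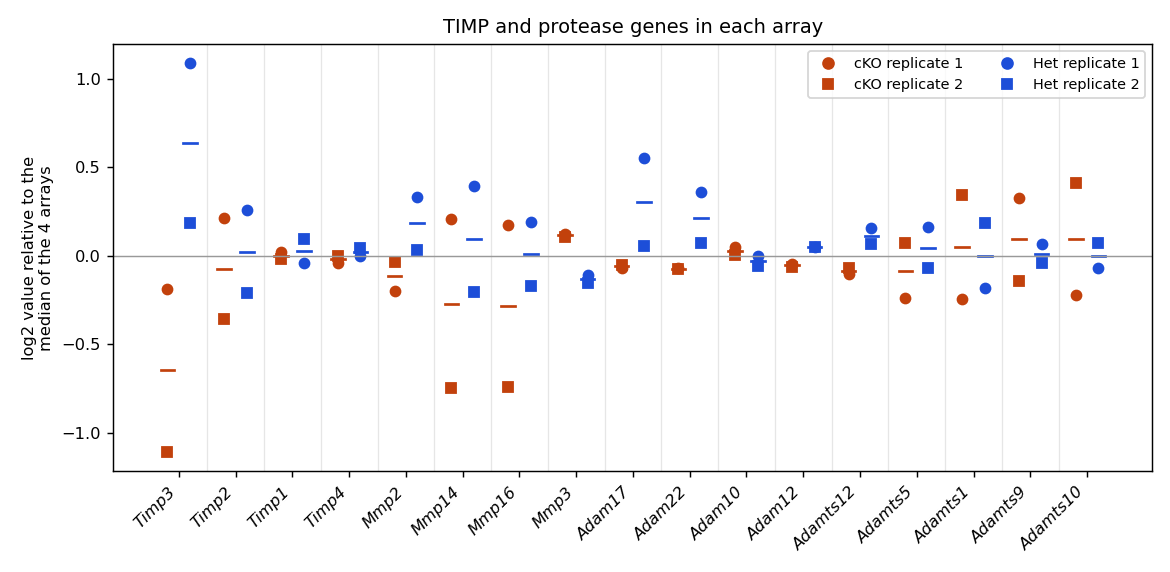
Log2 values of 17 TIMP and protease genes relative to the median of the 4 arrays, with cKO (orange) left of Het (blue), circles for replicate 1, squares for replicate 2 and short lines for group means of 2 arrays. Timp3 reaches from -1.11 in cKO replicate 2 to 1.09 in Het replicate 1, while Mmp14, Mmp16 and Timp2 have replicate 1 above replicate 2 in both groups and Mmp3 has 2 narrow, separate groups.

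Counted over all 83 genes, the shares that differed lay close to those over all genes. In both cKO arrays 15 genes were higher than in both Het arrays (17.8% of all genes did so) and 13 were lower (15.6% of all genes), which is 18.1% and 15.7% of the 83. With a difference of at least 0.3 in size as well, 2 genes were lower, Timp3 and Adam17 (3.01% of all genes), and 0 were higher (0.938% of all genes). In all, 38 of the 83 had a lower mean in cKO (47.7% of all genes). With 0.1 as the bound 9 were lower (9.58% of all genes) and 3 higher (5.92% of all genes). By limma's test 0 of the 83 genes passed over all genes (0% of all genes), and 3 had an unadjusted p under 0.05 (5.28% of all genes): Mmp3, Adamts12 and Adam1a. Without moderation of the variances 0 passed and 5 had an unadjusted p under 0.05 (4.7% of all genes). The adjusted p of the 83 genes ran from 0.897 to 1. The median difference was 0.00 for the 83 genes and 0.00 for all genes, and 66 of the 83 genes differed by less than 0.1 (73.4% of all genes did). Their arrays were also closer together than usual: 11 of the 83 genes (13.3%) spanned 0.3 or more over the 4 arrays, against 23.4% of all genes, and 47 of the 83 (56.6%) spanned less than 0.1, against 36.0% of all genes. Since no level is left, a quiet gene and an expressed gene that does not vary cannot be told apart here.

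Of the gelatinases and the membrane-type MMPs, several lay lower in cKO without passing the test. Mmp2, the gelatinase that degrades denatured and basement membrane collagen, stood at -0.20 and -0.03 in cKO, against 0.33 and 0.03 in Het. The groups did not overlap, and Het replicate 1 was the highest array: the difference of -0.30 ± 0.13 (SE; adjusted p = 0.958, limma) shrank to -0.15 without that array. Mmp9, the other gelatinase, stood at 0.02 and 0.01 in cKO, against -0.02 and -0.01 in Het, a difference of 0.03 ± 0.04. Mmp14, the membrane protease that cleaves fibrillar collagen and activates Mmp2, stood at 0.21 and -0.75 in cKO, against 0.39 and -0.21 in Het. Here cKO replicate 2 stood apart from the other 3 arrays, and the groups overlapped. The difference of -0.36 ± 0.42 (SE) was smaller than its error and turned to 0.11 without cKO replicate 2. Mmp16, another membrane-type MMP, ran likewise at 0.17 and -0.74 in cKO, against 0.19 and -0.17 in Het, a difference of -0.30 ± 0.37 that turned to 0.16 without cKO replicate 2. All 5 membrane-type MMPs measured had a difference below 0 (47.7% of all genes did), from -0.36 (Mmp14) to -0.02 (Mmp24). Mmp25, Mmp17 and Mmp24 lay within 0.1 of 0. The groups overlapped for all 5, while 33.5% of all genes had groups that did not overlap.

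Mmp3, stromelysin 1, which degrades proteoglycans and activates other pro-MMPs, had the highest difference of the 83 genes. It stood at 0.12 and 0.11 in cKO, against -0.11 and -0.15 in Het, so that each group was narrow and the groups lay apart. The difference was 0.25 ± 0.04 (SE), 1.19-fold higher in cKO, and ran from 0.22 to 0.27 with any 1 array left out. It had the smallest p of the 83 genes and missed the threshold over all genes (unadjusted p = 0.00509, adjusted p = 0.897, limma). Mmp3 is one of 10 Mmp genes that stand side by side on chromosome 9, where its neighbours in the gene table are Mmp1b and Mmp1a. The other 9 genes of that cluster ranged from -0.09 (Mmp27, with cKO below Het) to 0.04 (Mmp1b), with a median of 0.02. The cluster also holds 8 of the 12 genes with an AP-1 site in the promoter window, and these 12 genes differed by between -0.03 (Adam20) and 0.25 (Mmp3), with a median of 0.01. The SOX core was found before Adam26b, Mmp25, Mmp7 and Timp1, whose differences lay between -0.06 and 0.04 with overlapping groups.

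Among the 17 soluble MMPs, 9 were higher and 8 lower in cKO, with a median difference of 0.00. With groups that did not overlap 6 were higher (17.8% of all genes) and 4 lower (15.6% of all genes). Next to Mmp2, the lowest were Mmp19, a widely expressed MMP of the epidermis and vessels, at -0.18 ± 0.07 and Mmp23, which carries an unusual membrane anchor, at -0.17 ± 0.07 (SE), both with cKO below Het. Despite that anchor, Mmp23 was counted here with the soluble and not with the membrane-type MMPs. Mmp11, stromelysin 3, a stromal MMP activated inside the cell, stood at -0.14 and 0.06 in cKO, against -0.01 and 0.01 in Het, a difference of -0.04 ± 0.08 that turned to 0.063 without cKO replicate 1. In the remaining soluble MMPs the size of the difference stayed below 0.1.

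Adam17 and Adam10 are the principal sheddases of the cell surface, and they did not run together. Adam17, which releases tumour necrosis factor and ligands of the epidermal growth factor receptor, stood at -0.07 and -0.05 in cKO, against 0.55 and 0.05 in Het. The groups did not overlap, and Het replicate 1 was far above the other 3 arrays. The difference of -0.36 ± 0.19 (SE; adjusted p = 0.968, limma) shrank to -0.11 without Het replicate 1 and was -0.61 without Het replicate 2. Adam10, which cleaves Notch receptors and cadherins, stood at 0.05 and 0.00 in cKO, against 0.00 and -0.06 in Het, a difference of 0.06 ± 0.04 that was 0.029 without Het replicate 2. Adam12, a protease of growing mesenchyme, stood at -0.05 and -0.06 in cKO, against 0.05 and 0.05 in Het, a small difference of -0.10 ± 0.04 with narrow groups. Adam15 was at -0.12 ± 0.07 and Adam33 at 0.11 ± 0.07, of which Adam33 had overlapping groups, and Adam8, Adam9, Adam19 and Adam28 lay within 0.1 of 0. Adam15 was at -0.051 without Het replicate 1 and at -0.20 without Het replicate 2.

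Adam22, a surface protein without protease activity that binds LGI proteins at synapses, repeated the array pattern of Adam17. It stood at -0.07 and -0.07 in cKO, against 0.36 and 0.07 in Het, a difference of -0.29 ± 0.11 (SE) that shrank to -0.14 without Het replicate 1. Its relatives Adam11 and Adam23 were at 0.07 ± 0.07 and -0.01 ± 0.04 with overlapping groups, and Adam11 was at 0.0079 without cKO replicate 2 and at 0.13 without cKO replicate 1. The 22 ADAMs of the reproductive tract, known mainly from sperm and epididymis, gave the narrowest values: the median range over the 4 arrays was 0.06, against 0.10 over all 83 genes and 0.14 over all genes. Adam1a, the 1 gene of this class that differed by more than 0.1, stood at 0.05 and 0.13 in cKO, against -0.09 and -0.05 in Het, a difference of 0.16 ± 0.05 (unadjusted p = 0.0298, adjusted p = 0.936, limma). Its pair Adam1b, at -0.07 ± 0.04, ran the other way.

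**Figure D2:**
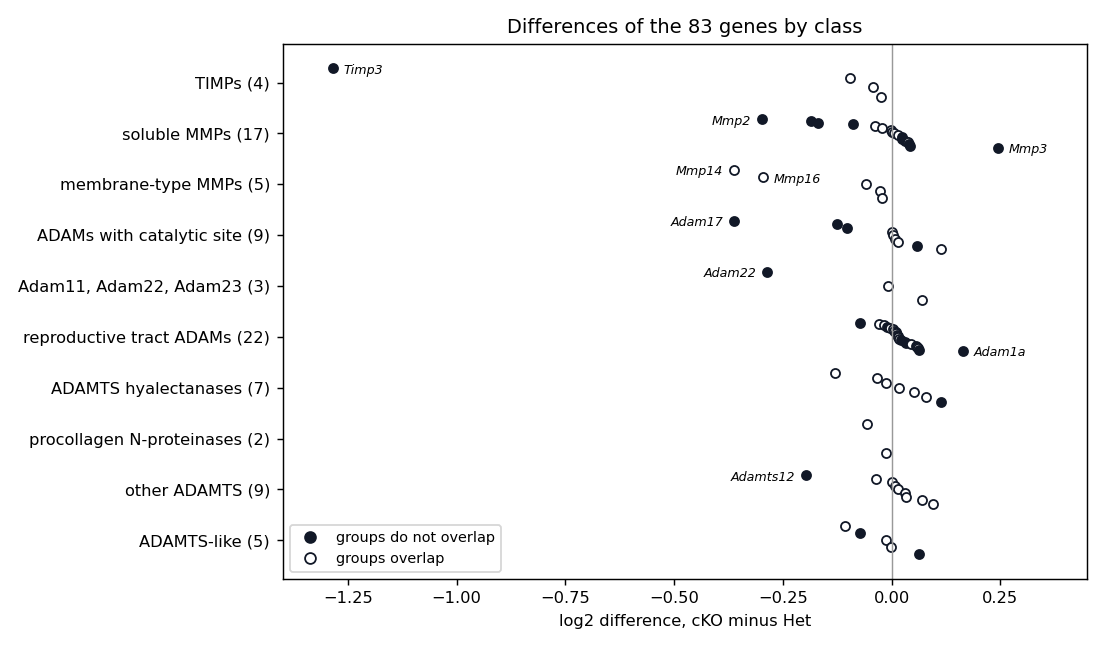
Log2 difference, cKO minus Het, of each of the 83 genes (points; filled where the groups of 2 arrays do not overlap), with classes down the page and the number of genes in brackets. Timp3 at -1.28 stands far from the rest, which lie between -0.36 (Mmp14) and 0.25 (Mmp3).

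In the ADAMTS family the hyalectanases, which cleave versican and related proteoglycans, included 3 genes with wide differences between arrays, Adamts1, Adamts5 and Adamts9. Adamts1 stood at -0.24 and 0.35 in cKO, against -0.18 and 0.18 in Het: replicate 2 was above replicate 1 in both groups, opposite to Mmp14 and Timp2. Its difference of 0.05 ± 0.26 (SE) turned to -0.24 without cKO replicate 2 and to -0.13 without Het replicate 1. Adamts5 stood at -0.24 and 0.07 in cKO, against 0.16 and -0.07 in Het, a difference of -0.13 ± 0.15 that turned to 0.02 without cKO replicate 1. Adamts15, at 0.03 and 0.11 in cKO, against -0.05 and -0.03 in Het, was the 1 gene of the 7 hyalectanases with separate groups, and its difference was 0.11 ± 0.04. Adamts4, Adamts8 and Adamts20 lay within 0.1 of 0. Adamts10, a protease linked to fibrillin microfibrils, stood at -0.22 and 0.41 in cKO, against -0.07 and 0.07 in Het, again with replicate 2 high, and its difference of 0.09 ± 0.24 turned to -0.22 without cKO replicate 2. Adamts12, which cleaves cartilage oligomeric matrix protein, stood at -0.10 and -0.07 in cKO, against 0.16 and 0.07 in Het, a difference of -0.20 ± 0.05 (unadjusted p = 0.0220, adjusted p = 0.934, limma).

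For 4 genes several probe sets allowed a check within the gene. Adamts9, a further versican-cleaving protease, had 6 probe sets and a mean of 0.33 and -0.14 in cKO, against 0.06 and -0.04 in Het, a difference of 0.08 ± 0.18 (SE). In 5 of its 6 probe sets cKO replicate 1 was above cKO replicate 2, by as much as 0.68, and the exception was the probe set with the lowest difference between the groups, -0.48. The remaining 5 probe sets had differences between -0.04 and 0.40, so the probe sets of Adamts9 disagree in direction, and its mean turned to -0.16 without cKO replicate 1. Adamts3, a procollagen N-proteinase, had 16 probe sets, 7 of them higher and 9 lower, with differences from -0.09 to 0.07 and a mean of -0.01 ± 0.04. Adamts14, a protease of the same kind with 1 probe set, was at -0.06 ± 0.05. The 5 probe sets of Adamts17 had differences from -0.17 to 0.10, and the 2 of Adamtsl1, a secreted matrix protein without a protease domain, were both below 0 with a mean of -0.07 ± 0.04. Of the ADAMTS-like genes, Adamtsl4, whose product binds fibrillin, was at -0.11 ± 0.09 with overlapping groups (-0.0026 without cKO replicate 1 and -0.21 without cKO replicate 2) and Adamtsl5 at 0.06 ± 0.04 with cKO above Het.

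**Figure D3:**
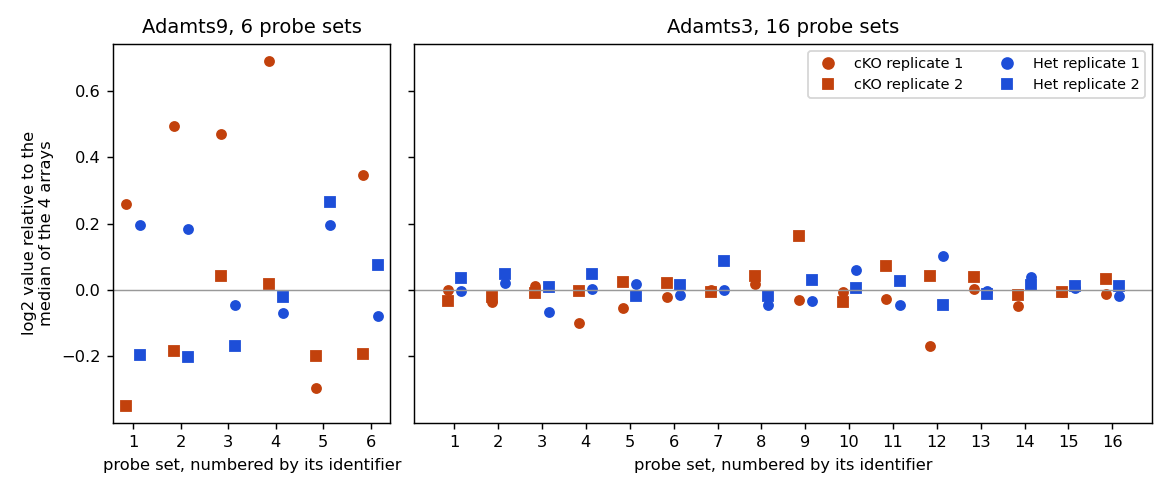
Log2 value of each probe set of Adamts9 (left) and Adamts3 (right) relative to the median of the 4 arrays, with cKO (orange) left of Het (blue), circles for replicate 1 and squares for replicate 2. In Adamts9 cKO replicate 1 is high in 5 of 6 probe sets, and the 16 probe sets of Adamts3 stay close to 0.

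The 11 genes with that wider span fell into different array patterns. Timp3, Mmp14, Mmp16 and Timp2 were higher in replicate 1 than in replicate 2 of both groups, by between 0.57 and 0.95 in cKO and between 0.36 and 0.90 in Het. Adamts1 and Adamts10 were lower in replicate 1 of both groups. Adam17, Mmp2 and Adam22 were high in Het replicate 1 alone, Adamts9 was high in cKO replicate 1, and Adamts5 was low in it. Of these 11 genes, Timp3, Adam17, Mmp2 and Adam22 had groups that did not overlap, as did 33.5% of all genes. The Het arrays of Adam17 differed by 0.50, more than the 0.36 between its groups. Those of Mmp2 and Adam22 differed by 0.30 and 0.29, about as much as their groups. For Timp3 the difference between the groups, 1.28 in size, was larger than the differences within them, and for Mmp14, Mmp16, Timp2, Adamts1, Adamts5, Adamts9 and Adamts10 it was smaller than the difference between the cKO arrays.

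**Figure D4:**
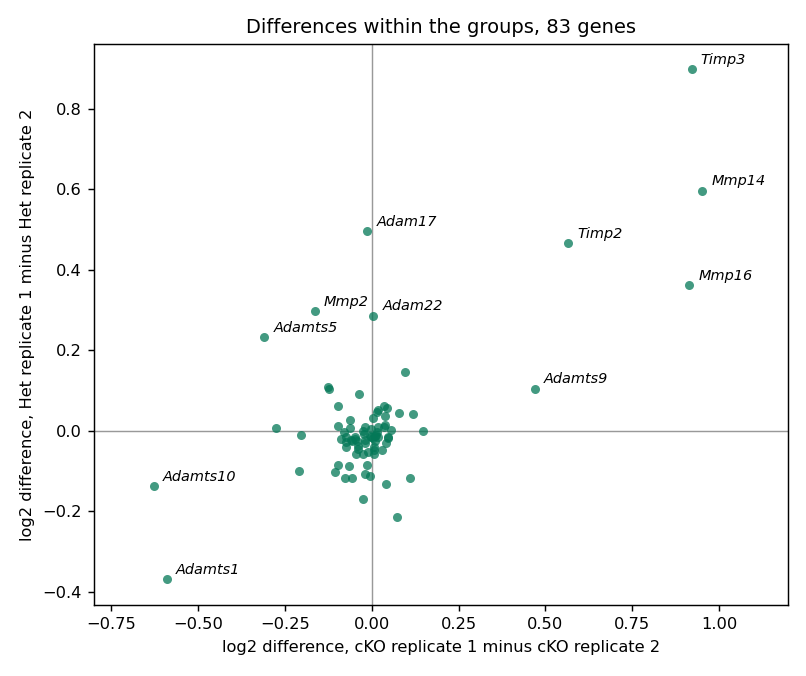
Log2 difference between the arrays of a group, replicate 1 minus replicate 2, in cKO (horizontal axis) and in Het (vertical axis) for the 83 genes, with names for the 11 genes that span 0.3 or more over the 4 arrays. Timp3, at 0.92 and 0.90, lies with Mmp14, Mmp16 and Timp2 at the upper right, Adamts1 and Adamts10 lie at the lower left, and most genes lie near 0.

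Set against the inhibitors, the protease group had a median close to 0 in each array. The same held for all genes in these centred values, so it is no result about the proteases. Over all genes the median was -0.0011 and 0.0036 in cKO, against -0.0017 and 0 in Het. The median over the 74 Mmp, Adam and Adamts genes was -0.00 and 0.01 in cKO, against -0.00 and 0.01 in Het. By mean, 44 of them were higher and 30 lower in cKO (47.7% of all genes were lower), and the median difference was 0.01. It was 0.00 over the 52 of these genes that are not ADAMs of the reproductive tract. The value of Timp3 exceeded that of 4 and 0 of the 74 protease genes in the cKO arrays, against all 74 in both Het arrays, on a scale where each gene is set to its own median. Timp3 had the 13th largest difference in size among all genes, and the share of all genes it exceeded was not counted. These counts are therefore no result about the proteases. Relative to Timp3, Adam17 stood at 0.12 and 1.05 in cKO, against -0.54 and -0.13 in Het, 0.92 higher in cKO. Mmp14 relative to Timp3 stood at 0.39 and 0.36 in cKO, against -0.69 and -0.39 in Het, which is also 0.92 higher, and with less spread between the cKO arrays (SD 0.02) than either gene had alone. For Mmp2, Adam10, Adamts4 and Adamts5, all genes of proteases that Timp3 is known to inhibit, this quantity was 0.99, 1.34, 1.27 and 1.15 higher in cKO. In all 6 genes the groups did not overlap, but the same held for 98.2% of all genes once Timp3 was subtracted, so this separation is that of Timp3 and is no result about these proteases. The 6 values share Timp3 and are not separate observations.

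**Figure D5:**
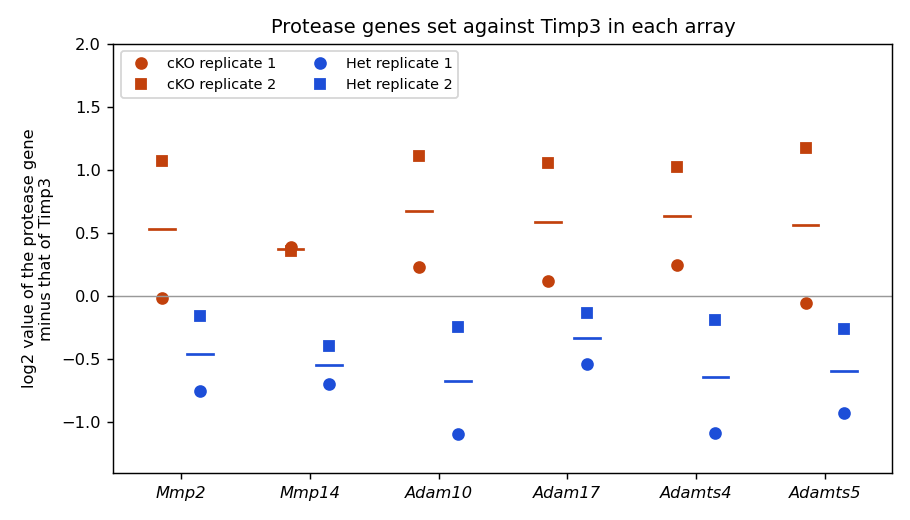
Log2 value of 6 protease genes minus that of Timp3 in the same array, with cKO (orange) left of Het (blue), circles for replicate 1, squares for replicate 2 and short lines for means of 2 arrays. The cKO arrays lie above the Het arrays for each gene, and for Mmp14 the cKO arrays nearly coincide at 0.39 and 0.36.

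Other genes of matrix proteolysis were taken from 7 lists. Together they held 116 measured genes, of which 14 were higher and 29 lower in both cKO arrays (17.8% and 15.6% of all genes) and 0 passed limma's test, with 12 at an unadjusted p under 0.05 (5.28% of all genes). Among the 15 cathepsins and other matrix proteases 4 were higher and 4 lower with separate groups. Ctsk, a collagen-degrading cathepsin, stood at -0.14 and -0.45 in cKO, against 1.36 and 0.14 in Het, a difference of -1.05 ± 0.47 (SE) that was -0.44 without Het replicate 1. Prss23, a secreted serine protease, was steadier at -0.32 and -0.39 in cKO, against 0.47 and 0.32 in Het, a difference of -0.75 ± 0.07 (adjusted p = 0.897, limma). The highest gene of the list was Fap, a serine protease of activated fibroblasts named after its value was seen, at 0.36 and 0.18 in cKO, against -0.18 and -0.37 in Het, a difference of 0.54 ± 0.10 (adjusted p = 0.897, limma). The 15 other metalloproteinases had 3 genes higher and 3 lower with separate groups, and their extremes were the related proteases of insulin-like growth factor binding proteins, Pappa2 at -0.58 ± 0.23 and Pappa at 0.45 ± 0.16 (SE). Pappa2 shrank to -0.28 without Het replicate 1 and Pappa to 0.25 without cKO replicate 2.

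Over all genes, 17.8% were higher and 15.6% lower with separate groups, the shares against which each list here is set. Of the 23 other inhibitors and regulators, 2 were higher and 5 lower with separate groups. Bsg, the membrane glycoprotein basigin that induces MMPs in neighbouring cells, was at -0.48 ± 0.19 and Pcolce, which enhances procollagen C-proteinases, at -0.45 ± 0.24 (SE). These shrank to -0.28 and -0.16 without Het replicate 1. Reck, a membrane-anchored MMP inhibitor, was at -0.03 ± 0.13 with overlapping groups. The 7 proprotein convertases, which activate MMPs, ADAMs and ADAMTS proteases inside the cell, had 0 genes higher and 1 lower with separate groups, Pcsk5 at -0.02 ± 0.04 (named after its value was seen). Their extremes Mbtps1, at -0.14 ± 0.18, and Pcsk7, at 0.06 ± 0.06, overlapped, and the first turned to 0.04 without Het replicate 1. In the plasminogen system and its serpins 3 genes were higher and 2 lower of 9 with separate groups, and by mean 4 were higher and 5 lower. The extremes of that list, the collagen chaperone Serpinh1 at -0.14 ± 0.18 and the complement inhibitor Serping1 at 0.12 ± 0.17, had overlapping groups. Without cKO replicate 2 Serpinh1 turned to 0.09, and without Het replicate 2 Serping1 turned to -0.10.

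The matrix substrates were the list with the lowest median. Of 23 measured genes 9 were lower and 0 higher with separate groups, and the median difference was -0.20, against 15.6% lower, 17.8% higher and a median of 0.00 over all genes. Because the list was chosen with earlier results of these data known, setting it beside all genes is no test of it. Sparcl1, a matricellular glycoprotein cleaved by ADAMTS4 and MMP3, was at -1.14 ± 0.15 and Vcan, the versican gene, at -0.77 ± 0.26 (SE), neither past the test (adjusted p = 0.897 and 0.937, limma). Vcan was lower by 0.76 in replicate 1 and by 0.77 in replicate 2. Among 24 substrates shed by ADAM10 and ADAM17, 2 were higher and 5 lower with separate groups and the median was -0.02. The hyaluronan receptor Cd44, at -0.56 ± 0.13, and N-cadherin, Cdh2, at -0.55 ± 0.17, were the lowest of them.

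Markers of other cells that a skin sort could hold also differed between arrays; over all genes 15.6% were lower and 17.8% higher with separate groups. The dermal fibroblast list had 4 of 11 measured genes lower and 2 higher with separate groups, and its median was -0.00 and -0.09 in cKO, against -0.00 and 0.06 in Het. Those 4 lower genes, Col1a1, Col1a2, Col3a1 and Lum, are also counted among the matrix substrates, so the counts of these lists are not separate observations. The Schwann and glial list had 3 of 8 genes lower and 0 higher with separate groups. Its median was 0.04 and -0.26 in cKO, against 0.21 and 0.02 in Het, so Het replicate 1 was highest and cKO replicate 2 lowest, as for Timp3. That order was also seen outside the glial list. The median of the matrix substrates had it as well (-0.04 and -0.10 in cKO, 0.10 and 0.01 in Het). So did Vcan (-0.15 and -0.63 in cKO, 0.62 and 0.15 in Het), which is on the substrate and papilla lists and is no separate observation. The keratinocyte list had 5 of 15 lower and 0 higher with separate groups (14 lower and 1 higher by mean), with a median of -0.05 and -0.01 in cKO, against -0.05 and 0.18 in Het. By mean, 7 of 9 hair matrix genes and 7 of 8 melanocyte genes were lower, of which 1 and 0 had separate groups. With separate groups, 4 of 18 papilla markers were lower and 3 higher. For dermal sheath these counts were 2 and 1 of 10, and for Merkel cells 1 and 1 of 7. Sox2 is on the papilla and Merkel lists. The endothelial and immune lists kept medians between -0.03 and 0.01 in all 4 arrays. The part of these cells in the differences of the protease and inhibitor genes was not tested.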

How the data were processed

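Whole-transcript arrays measured 4 samples of sorted dermal papilla cells, 2 per group; total RNA was amplified and labelled with biotin, per the labels' protocols. The authors made the deposited log2 values with the tool RMA, as the submitters' processing notes record. The table names no base, and log2, the scale RMA gives, was assumed. Neither the version of RMA nor how the values were centred is given in the sources used here. After centring, no level, background or detection filter was available.

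Names came from the annotation of the array platform: 21789 of 28853 named 1 gene, and a gene's value is the mean over its probe sets. All 83 symbols matched a gene table of GRCm38.p6, used for chromosomes and neighbours. Groups were compared with limma 3.58.1 in R 4.3.3 (lmFit and eBayes, group as the only term, two-sided), with Benjamini-Hochberg adjustment over 19938 genes taking 0.05 as the threshold. Residual degrees of freedom were 2, and the prior added 1.52. On simulated data with known changes, the fit was checked for the median size of the estimated differences. How many of those changes it called is not reported here. Errors marked SE come from this fit. Figures used matplotlib 3.10.9 in Python 3.11.15.

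Named genes were a fixed set of 14 members, each member with a difference of at least 0.3 and separate groups, the 2 largest differences of each class and of each pathway list, and Sox2; other genes were named after their values were seen. The members and lists were chosen with earlier results of these data known. Alternatives were arrays centred on their medians, the replicate number as a block, a robust prior, no moderation, the median over probe sets, probe sets in place of genes, and each array left out.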

Additional observations from a re-analysis of the deposited data

How the results depend on the processing

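The count of genes and of the 83 members called by limma was 0 under every alternative tried: centred arrays, the replicate block, a robust prior, no moderation, the median over probe sets, probe sets in place of genes (0 of 28853) and each array left out. Of all 19938 genes, 1053 had an unadjusted p under 0.05 in the fit reported and 1625 with the replicate block (limma). With that block 5 of the 83 members were under it, Timp3 among them (adjusted p = 0.514, limma). Same-numbered arrays deviated together, with a correlation of 0.30 over genes, but 2 pairs do not settle whether the numbers pair the samples. With 1 array left out, between 21 and 38 members were higher and between 19 and 34 lower in cKO with separate groups, against 15 and 13 with all arrays. With 3 arrays, groups separate more readily by construction. The shares over all genes were not counted in these fits, so the counts are no result about the members. The median of the protease genes ran from -0.00414 (without Het replicate 1) to 0.0144, and that of the TIMP genes from -0.21 to -0.034. Of the 43 named genes 28 kept their direction under centred arrays, the replicate block, the median over probe sets and each array left out, and 15 turned in at least 1 fit with an array left out. These ranges were -0.091 to 0.040 for Timp1, -0.38 to 0.19 for Timp2, -0.14 to 0.063 for Mmp11, -0.84 to 0.11 for Mmp14, -0.75 to 0.16 for Mmp16, -0.24 to 0.35 for Adamts1, -0.29 to 0.024 for Adamts5, -0.16 to 0.32 for Adamts9, -0.22 to 0.41 for Adamts10, -0.11 to 0.00085 for Adamts14, -0.038 to 0.011 for Adamts3, -0.33 to 0.045 for Mbtps1, -0.0044 to 0.11 for Pcsk7, -0.36 to 0.092 for Serpinh1 and -0.10 to 0.35 for Serping1. No signal over background is left in the centred values.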
